A study of Homo sapiens with 3 samples.

Results

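BTSH cells, a clone derived from the HER2+ breast cancer line BT474, were examined here for the other receptors of the HER family, EGFR, ERBB3 and ERBB4. These are 3 of the 4 genes of the family, and each was represented by 1 feature carrying that gene's symbol alone, out of 16098 named features for 14884 genes and 53617 features in all. No feature named for ERBB2, the gene of HER2, was available here, and its level was not analysed here. RNA was taken from 3 untreated BTSH cultures described as biological replicates, one HuGene 2.0 ST array per culture, grown in serum-containing DMEM. BTSH cells were picked from BT474 cells plated at low density for their increased response to trastuzumab, so that every value describes a single clone, and with no other cell line among the arrays no comparison between lines was made. Values are RMA signals on the log2 scale.

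The HER receptors are transmembrane tyrosine kinases that act in pairs. Ligands of the EGF group bind EGFR, neuregulins bind ERBB3 and ERBB4, and some ligands, such as betacellulin and heparin-binding EGF, bind both EGFR and ERBB4. HER2 has no known ligand of its own and is the preferred partner of the other receptors. ERBB3 has little kinase activity and signals through its partner, recruiting PI3 kinase to its phosphorylated tail, and the pair of HER2 and ERBB3 is a strong driver of growth in HER2+ breast cancer. ERBB4 can be cut at the membrane so that its intracellular part reaches the nucleus, and in the mammary gland it acts in differentiation and lactation.

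EGFR and ERBB3 gave signals clear of the background in every BTSH culture, whereas ERBB4 stayed below it. The background was taken from 105 features of gene families with roles outside the mammary gland, of which 85 belong to keratin-associated proteins, 17 to the late cornified envelope and 3 to vomeronasal receptors. A gene was called above background when it passed the 95th percentile of these features in each of the 3 arrays (6.71 in replicate 1, 7.08 in replicate 2 and 6.84 in replicate 3). By this rule 2 of the 3 receptors were called, against 30.4% of all named genes. This percentile lies in a sparse stretch of the background, since the 90th percentile was only 5.34, 5.56 and 5.61 in replicates 1, 2 and 3.

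EGFR, the receptor for EGF and its relatives, had signals of 9.03, 8.87 and 8.71 in replicates 1, 2 and 3, with a mean of 8.87 ± 0.16 (SD, n = 3). It was highest in replicate 1 and lowest in replicate 3, and exceeded all 105 background features in each array. The brightest of these, KRTAP5-7, a keratin-associated protein gene, had signals of 8.22, 8.67 and 8.58, so that EGFR cleared it by 0.81, 0.20 and 0.13. The margin over the brightest background feature was thus narrow in replicates 2 and 3.

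ERBB3, the receptor for neuregulins that relies on the kinase of its partner, had signals of 9.06, 9.02 and 9.05, with a mean of 9.04 ± 0.02 (SD, n = 3). The 3 cultures were nearly identical for this gene, and ERBB3 also exceeded all 105 background features in each array, by 0.84, 0.35 and 0.47 over the brightest. Such a position above every background feature in all arrays was held by 11% of named genes.

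ERBB4, the other neuregulin receptor, had signals of 4.89, 5.29 and 4.60, with a mean of 4.93 ± 0.35 (SD, n = 3). It was highest in replicate 2 and lowest in replicate 3, and was above background in 0 arrays, as were 63.3% of named genes. It nevertheless lay in the upper part of the background features, above 83, 90 and 78 of the 105 in replicates 1, 2 and 3, and above their median by 1.21, 1.46 and 0.89. A signal in this range gives only an upper bound, and whether few cells carried ERBB4 RNA or all cells carried little cannot be told apart in RNA of whole cultures. Each receptor rests on 1 feature and signals also depend on the probes, so the 3 receptors were set against the background and not against each other.

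**Figure D1:**
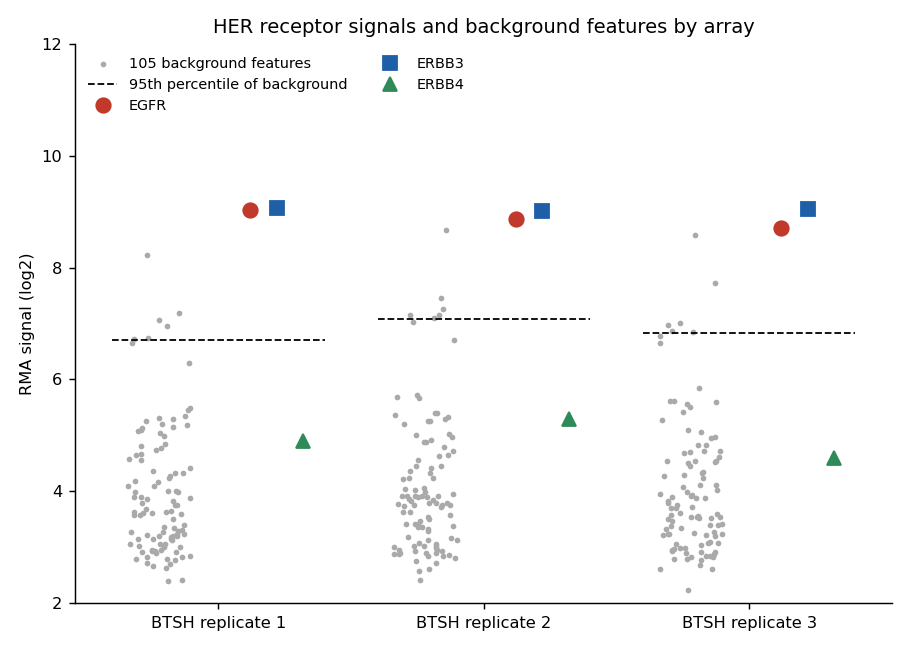
RMA signals on the log2 scale in each BTSH array for EGFR (circles), ERBB3 (squares), ERBB4 (triangles) and the 105 background features (grey points, spread sideways for legibility). Dashed lines mark the 95th percentile of the background. EGFR and ERBB3 lie above every grey point in all 3 arrays, and ERBB4 lies below the dashed line in all 3.

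The height of each receptor over the background was tested with limma across all features. The height is the signal minus the 95th percentile of the background in the same array. For EGFR it was 2.32, 1.79 and 1.87 in replicates 1, 2 and 3 (mean 2.00 ± 0.29, SD, n = 3; above in 3 of 3 arrays; 95% confidence interval 1.65 to 2.34; limma adjusted p = 4.22e-30). For ERBB3 the heights were 2.35, 1.94 and 2.22 (mean 2.17 ± 0.21; above in 3 of 3 arrays; 95% confidence interval 1.83 to 2.51; limma adjusted p = 1.49e-35). ERBB4 had heights of -1.81, -1.78 and -2.24 (mean -1.94 ± 0.25; below in 3 of 3 arrays; 95% confidence interval -2.27 to -1.62; limma adjusted p = 5.69e-31).

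In the same fit 16.7% of all features were higher than the background and 77.3% lower, so that such calls are common in both directions. The p-values of this fit are too small, since subtracting one background value per array adds the same shift to every feature and the fit then took the spread of each feature wholly from a trend over all features. With the background held at its mean over the arrays, a setting chosen after seeing the data, the limma adjusted p was 8.72e-07 for EGFR, 1.37e-07 for ERBB3 and 1.57e-05 for ERBB4, with 17.7% of features higher and 78.2% lower. An exact two-sided sign-flip permutation test over the 3 arrays gave p = 0.25 for each receptor, the smallest value that 3 arrays allow. Neither limma fit includes the error from the choice of the background features.

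The 3 receptors differed in how far the cultures spread. The highest and lowest cultures were 1.25-fold apart for EGFR, 1.03-fold for ERBB3 and 1.62-fold for ERBB4. Among the 1000 features nearest in mean level, the median SD was 0.12 around EGFR, 0.12 around ERBB3 and 0.14 around ERBB4. The SD of EGFR was larger than that of 67.1% of its neighbours in level, that of ERBB4 larger than that of 90.4%, and that of ERBB3 larger than that of only 2.6%. EGFR therefore spread within the usual range for its level, ERBB3 less than most features and ERBB4 more than most. The median of the background features (3.68, 3.83 and 3.71 in replicates 1, 2 and 3) and their 95th percentile were highest in replicate 2, where ERBB4 was highest, whereas their 90th and 99th percentiles were highest in replicate 3, where ERBB4 was lowest. The part of the background in the ERBB4 signal was not tested.

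**Figure D2:**
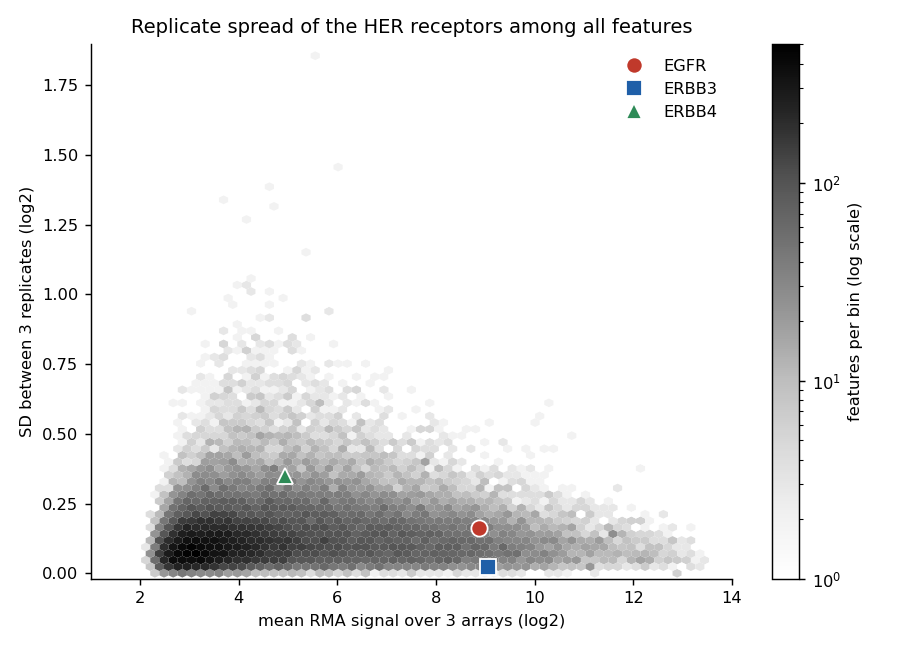
SD between the 3 BTSH replicates against the mean RMA signal, both on the log2 scale, for all 53617 features (grey bins, darker for more features, log colour scale) with the 3 receptors marked. ERBB3 (SD 0.02) lies at the lower edge of the cloud, EGFR (SD 0.16) within it and ERBB4 (SD 0.35) towards its upper side.

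The stretch upstream of the gene start is shown for EGFR and ERBB4, as a gene called above background and one that was not. RefSeq promoter windows of GRCh38.p14 were available here for 2 of the 3 receptors, and the 250 bases before the start are printed 5′ to 3′ on the strand of the gene. The EGFR stretch is chr7:55018767-55019016 on the plus strand and the ERBB4 stretch chr2:212538803-212539052 on the minus strand. Capitals mark matches, on either strand, to the GC box bound by SP1 (GGGCGG), the AP-2 motif (GCCNNNGGC, the same on both strands), the TATA box (TATAAA) or a forkhead motif (GTAAACA).
EGFR: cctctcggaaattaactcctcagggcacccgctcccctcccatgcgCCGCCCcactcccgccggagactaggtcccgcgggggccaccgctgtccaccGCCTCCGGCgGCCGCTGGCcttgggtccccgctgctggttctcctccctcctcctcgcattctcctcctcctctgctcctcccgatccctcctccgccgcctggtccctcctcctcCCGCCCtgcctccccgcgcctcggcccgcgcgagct
ERBB4: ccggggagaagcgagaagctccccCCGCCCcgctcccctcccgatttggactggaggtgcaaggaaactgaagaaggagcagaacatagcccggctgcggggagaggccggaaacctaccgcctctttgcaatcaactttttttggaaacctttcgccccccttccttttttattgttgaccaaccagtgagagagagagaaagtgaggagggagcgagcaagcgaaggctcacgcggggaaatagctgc

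The EGFR stretch held 2 GC boxes, which begin 204 and 36 bases before the start, and 2 AP-2 motifs, which begin 152 and 142 bases before it and do not overlap. The ERBB4 stretch held 1 GC box, 226 bases before the start, and 0 AP-2 motifs. Neither printed stretch held a TATA box or a forkhead motif. Of 35116 windows of the same length before gene starts, 42.6% held a GC box, 19.8% an AP-2 motif, 10.7% a TATA box and 2.98% a forkhead motif. G and C made up 73.6% of the EGFR stretch and 57.2% of the ERBB4 stretch, against a median of 58.0% over all windows. A match of letters is a description of the window and shows no binding. A further EGFR window, at a start inside the gene and not shown, differed from the printed one, with 38.8% G and C, 0 GC boxes, 0 AP-2 motifs and 2 TATA boxes that begin 146 and 36 bases before that start.

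Of the factors that are known to act on HER family genes, SP1 and the AP-2 factor TFAP2C were above background in the BTSH cultures. SP1, the GC box factor, had signals of 9.42, 9.39 and 9.40 (9.40 ± 0.02, SD, n = 3), and TFAP2C, an AP-2 factor of luminal breast cells, 10.45, 10.37 and 10.58 (10.47 ± 0.11). SP1 was nearly identical in the 3 cultures. FOXO4, a forkhead factor restrained by AKT, passed as well (7.33 ± 0.08), but less clearly, by 0.46 on average. FOXO3, a forkhead factor that raises ERBB3 transcription when AKT is inhibited, had 6.61 ± 0.01 and was above background in 0 arrays. Together 3 of 9 named genes of this list passed in all arrays, a share near the 30.4% of all named genes, and their median height was -0.26 against -1.16 over all named genes. At the 90th percentile of the background 7 of the 9 passed, FOXO3 among them, against 50.4% of all named genes.

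Of the 11 ligand genes of the HER receptors, 9 had a named feature, and none of these 9 was above background in BTSH cells. The count was 0 of 9 in any array, and 63.3% of named genes were likewise above background in 0 arrays. By the rule of all 3 arrays 30.4% of named genes passed. Among the ligands of EGFR, the signals in replicates 1, 2 and 3 were 5.50, 5.13 and 5.30 for EGF and 3.48, 3.48 and 3.39 for EPGN, which encodes epigen. Those that bind both EGFR and ERBB4 were also below it, with 4.59, 4.47 and 4.25 for BTC (betacellulin), 4.27, 4.17 and 3.98 for HBEGF (heparin-binding EGF) and 3.50, 3.46 and 3.74 for EREG (epiregulin). Each of these 5 genes stayed under the background of its array by more than 1 on the log2 scale.

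Among the neuregulins, NRG1, the principal ligand of ERBB3, had signals of 4.17, 4.05 and 4.32, and NRG2, also a ligand of ERBB3 and ERBB4, 5.06, 4.98 and 5.31, with a second feature lower still (4.14 ± 0.18, SD, n = 3). NRG3 and NRG4, which bind ERBB4, had 5.31, 5.51 and 5.41 (NRG3) and 4.24, 4.06 and 4.32 (NRG4). The median height of the 9 ligands was -2.67, against -1.16 over all named genes, and their SDs ranged from 0.05 to 0.19. The count stayed at 0 at the 90th percentile of the background and with each replicate left out. EGF, NRG2 and NRG3 lay in the upper part of the background features, above between 84 and 97 of 105 depending on the array, as ERBB4 did. BTC, HBEGF, NRG1 and NRG4 lay above between 62 and 77 of them, and EPGN and EREG above between 37 and 53. AREG and TGFA, which encode amphiregulin and transforming growth factor alpha, were not analysed here.

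The proteases that free ligands from the cell surface were in part above background. ADAM17, the main sheddase of several EGFR ligands and of ERBB4, had signals of 9.02, 8.98 and 8.82 (8.94 ± 0.10, SD, n = 3), and ADAM10, which releases EGF and betacellulin, 9.69, 9.69 and 9.53 (9.64 ± 0.09). ADAM9 (9.52 ± 0.16) and ADAM15 (8.25 ± 0.11) passed in all arrays, and ADAM12 (4.13 ± 0.06) and ADAM19 (5.59 ± 0.08), which act in the shedding of HBEGF and of neuregulins, in 0 arrays. The rhomboid-like protein RHBDF1 (6.65 ± 0.01), which steers ADAM17 to the surface, was above background in 0 arrays. In all arrays 4 of 9 genes of this list passed, against 30.4% of all named genes, with a median height of -0.11 against -1.16. At the 90th percentile 7 of 9 passed, against 50.4%.

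Among the adaptors that dock on the phosphorylated receptors, 8 of 16 named genes were above background, against 30.4% of all named genes, with a median height of 0.66 against -1.16. GRB2, which links the receptors to RAS activation, had signals of 9.08, 8.97 and 8.85 (8.97 ± 0.11, SD, n = 3), SHC1, which brings GRB2 to ERBB3 and EGFR, 9.03, 8.99 and 9.08 (9.03 ± 0.04), and the RAS exchange factor SOS1 9.48, 9.53 and 9.18 (9.40 ± 0.19). GRB7, an adaptor encoded close to ERBB2, had 10.59, 10.82 and 10.89 (10.77 ± 0.16). CRKL, NCK2, SOS2 and VAV2 passed in all arrays too. GAB1 (6.55 ± 0.17), a docking protein for PI3 kinase downstream of EGFR, and GAB2 (4.45 ± 0.04) were above background in 0 arrays, as were STAT5A (4.85 ± 0.24) and STAT5B (6.23 ± 0.14), which ERBB4 activates in the lactating gland. At the 90th percentile 13 of the 16 passed, against 50.4% of all named genes. The regulatory subunits of PI3 kinase, PIK3R1, PIK3R2 and PIK3R3, were among 8 genes of this list that were not analysed here.

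Of the genes that restrain the HER receptors or direct their turnover, 13 of 15 named genes were above background, against 30.4% of all named genes. The median height of the 15 was 1.42, against -1.16 over all named genes. A further 10 genes of this list, among them CBL, CBLB and CBLC, were not analysed here. By limma 11 of the 15 were higher than the background, and LRIG3 (7.22 ± 0.20, adjusted p = 0.053) and SPRY4 (7.19 ± 0.21, adjusted p = 0.076), which passed in each array, were not. LRIG1, a membrane protein that promotes degradation of HER receptors, had signals of 9.08, 9.01 and 9.05 (9.05 ± 0.04, SD, n = 3), and RNF41, the ubiquitin ligase that keeps ERBB3 low, 8.44, 8.27 and 8.24 (8.31 ± 0.11). USP8, the deubiquitinase that stabilises RNF41 and sorts EGFR at the endosome, had 8.90, 8.79 and 8.68 (8.79 ± 0.11). ERRFI1, a feedback inhibitor that binds the EGFR kinase, had 7.84, 7.84 and 7.43 (7.70 ± 0.24). The ubiquitin ligases ITCH (11.49 ± 0.05) and WWP1 (9.18 ± 0.12), of which both act on ERBB4, and the endosomal sorting proteins HGS (8.30 ± 0.04), STAM (9.23 ± 0.17) and EPS15 (8.50 ± 0.14) passed as well. SPRY2 (5.89 ± 0.08), an inhibitor of RAS signalling, was above background in 0 arrays and SOCS5 (6.93 ± 0.23), which promotes EGFR degradation, in 2. With the 99th percentile as background 9 of the 15 passed, against 21.9% of all named genes.

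**Figure D3:**
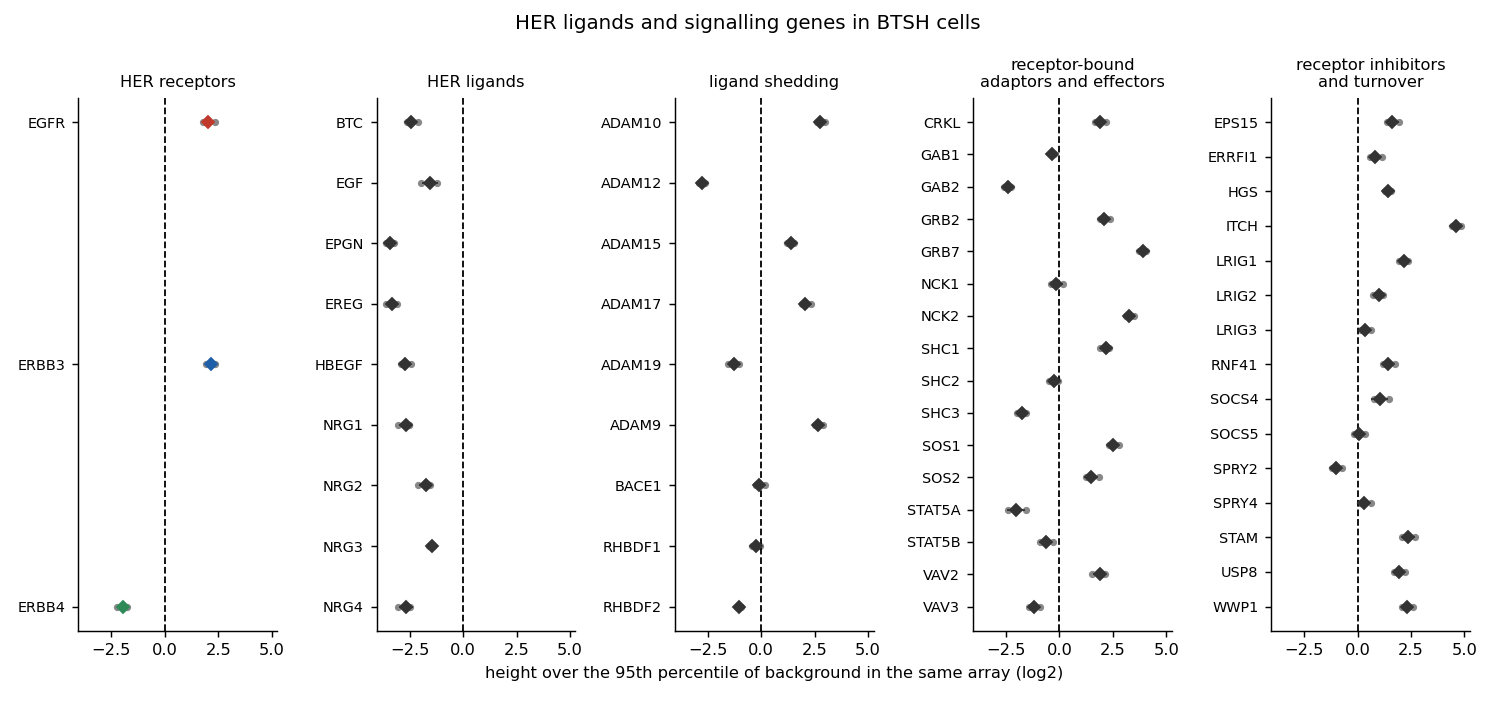
Height over the 95th percentile of the background in the same array, on the log2 scale, for the genes of 5 lists; grey points are the 3 BTSH arrays, diamonds their mean and bars the SD, and the dashed line at 0 marks the background. EGFR and ERBB3 lie to the right of the line and ERBB4 to the left. All 9 named ligands lie to the left, and 13 of 15 named inhibitors and turnover genes lie to the right in every array.

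The machinery that cuts ERBB4 was in part above background although ERBB4 itself was not. Besides ADAM17, the gamma-secretase subunits NCSTN (9.94 ± 0.12, SD, n = 3), PSENEN (10.84 ± 0.17) and APH1A (7.50 ± 0.08) passed in all arrays, whereas PSEN2 (6.60 ± 0.09), a catalytic subunit, and APH1B (5.89 ± 0.18) passed in 0. YAP1, a transcriptional partner of the ERBB4 fragment, had one feature above background (9.68 ± 0.07) and one below it (5.33 ± 0.09), and TAB2, which couples the fragment to a corepressor, passed narrowly (7.39 ± 0.06). In all 6 of 10 named genes of this list passed, against 30.4% of all named genes, with a median height of 0.57 against -1.16. The count ranged from 4 with the 99th percentile as background to 9 with the 90th.

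EGFR was higher in replicate 1 than in replicate 3 by 0.32 on the log2 scale, a difference reached by 13.1% of the 4519 genes above background. The order of EGFR, with replicate 1 highest, replicate 2 between and replicate 3 lowest, was shared by 33.5% of these genes, and their median difference between replicates 1 and 3 was 0.07. Among the inhibitors and turnover genes above background 8 of 13 had this order, among them RNF41, USP8, STAM, WWP1 and EPS15. Among the adaptors 4 of 8 had it, CRKL, GRB2, NCK2 and SOS2. The order was held by 2 of 4 shedding genes, 3 of 6 genes of the ERBB4 cleavage list, 1 of 7 luminal markers and 0 of 3 transcription factors. ERBB3 and SHC1 did not follow it, and the deviations of ERBB3 from its own mean were 0.01, -0.02 and 0.01. The p-values above rest on these 3 cultures only. Those of the first limma fit take the spread from a trend over all features and not from a receptor's own 3 values. Single arrays were not tested against each other.

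**Figure D4:**
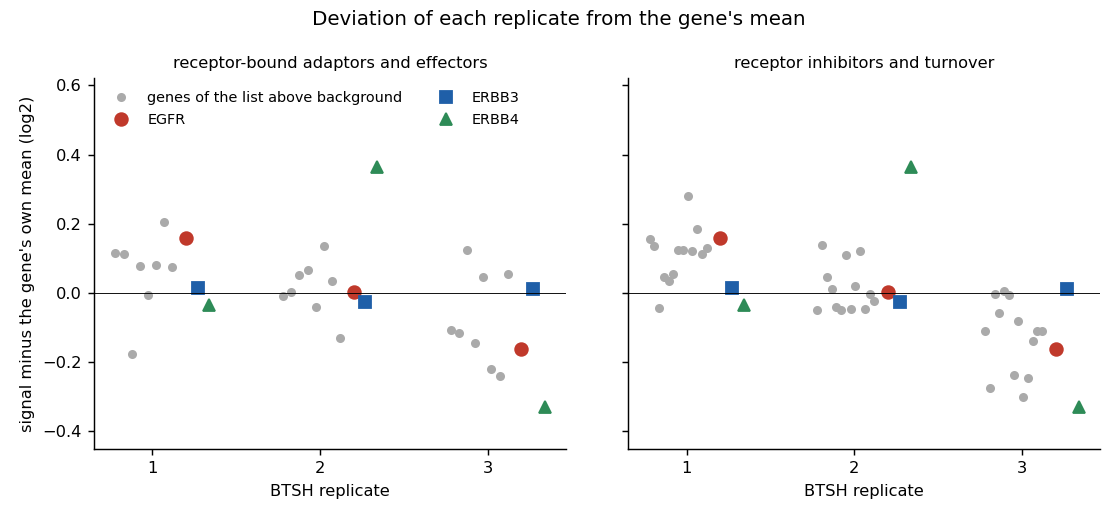
Signal in each BTSH replicate minus the gene's mean over the 3 replicates, on the log2 scale, for EGFR, ERBB3 and ERBB4 (coloured) and for the genes of 2 lists that were above background (grey; 8 adaptors on the left, 13 inhibitors and turnover genes on the right). EGFR lies at 0.16 in replicate 1 and -0.16 in replicate 3, within the grey points in both panels, while ERBB3 stays near 0 and ERBB4 reaches 0.37 in replicate 2.

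The genes whose values over the 3 arrays ran closest to those of EGFR, by the root mean square distance between mean-centred signals among genes above background, were POLR1F, a subunit of RNA polymerase I (distance 0.0013), TMOD3, which caps actin filaments (0.0016), and ATL3, a GTPase of the endoplasmic reticulum (0.0022). POLR1F had signals of 7.28, 7.12 and 6.95. For ERBB3 they were RAPGEF1, an exchange factor for RAP1 (0.0013), RPN2, a subunit of the oligosaccharyltransferase (0.0038), and GDI2, which recycles RAB proteins (0.0041). RAPGEF1 had signals of 7.77, 7.72 and 7.76. With only 3 arrays such likeness is common, as 554 genes (12.3%) lay within 0.05 of EGFR and 952 (21.1%) within 0.05 of ERBB3. An SD no larger than that of ERBB3 was found for 148 (3.28%) of the other 4518 genes above background. No such genes were sought for ERBB4, which was below background.

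The labelled cell type was checked against its markers. In each of the arrays 7 of 8 luminal markers passed the background, where 30.4% of all named genes did, with EPCAM at 10.81 ± 0.04 (SD, n = 3) and KRT19 at 11.25 ± 0.09, and KRT8 (6.28 ± 0.24) in 0. The basal keratins KRT5 and KRT14 were above background in 0 arrays. KRT17 and TP63 of the basal list, CDH1 of the luminal list and 7 of 11 immune, stromal and endothelial markers were not analysed here. Of 4 named markers of immune, stromal and endothelial cells, LUM, PECAM1 and VWF were above background in 0 arrays and CD68, a lysosomal protein gene used as a macrophage marker, in 2, with signals of 7.70, 7.03 and 7.01. Without replicate 2, CD68 was above background in both remaining arrays, and its part in the values of the receptors was not tested. The medians of all features were 4.40, 4.42 and 4.43 in replicates 1, 2 and 3, and at most 83 features had the same value in any pair of arrays.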

How the data were processed

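Total RNA of untreated BTSH cells was measured on 3 HuGene 2.0 ST arrays. The authors normalized the arrays by RMA with Expression Console 1.4 and deposited log2 signals per feature. Transcriptome Analysis Console 4.0 is a further tool named in the submitters' processing notes. Whether arrays of other lines were normalized with them, and the genome build of the features, are not given in the sources used here.

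Values were used as deposited. Features were named from the platform annotation (16098 of 53617, 0 with several symbols), with symbols updated through the gene identifiers of RefSeq GRCh38.p14, and a gene with several features was represented by the one with the highest mean. Background features were protein-coding genes of 3 families. Heights were fitted with limma 3.58.1 in R 4.3.3 (intercept, eBayes with trend, Benjamini-Hochberg over all features). The step was first run on simulated data whose features varied independently. That run could not show the effect of a background shift shared by all features. Other calculations used Python 3.11.15, numpy 2.4.6 and pandas 2.3.3, and plots matplotlib 3.10.9.

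The members, lists and named genes were chosen with earlier results of these data known. Named are the receptors, genes of 10 lists, the 3 genes of most similar pattern and the nearest 3 genes on each side. Alternatives were other background percentiles and families, other normalizations, other rules over features and arrays, and leaving out each replicate. The 3 arrays limit the precision of every value.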

Additional observations from a re-analysis of the deposited data

How the results depend on the processing

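EGFR and ERBB3 were above background and ERBB4 was not under each of 11 alternatives. These were other percentiles and families of background features, quantile normalization, median centring, the mean of a gene's features, the mean over the arrays, and leaving out each replicate. Most of them could not change the calls. EGFR and ERBB3 exceeded all 105 background features in each array, so none of the alternatives could have changed theirs. Quantile normalization keeps the order of features within an array, and median centring shifts receptor and background alike. ERBB4 was below background in each array, so leaving out a replicate, the 99th percentile, median centring and both means could not change its call. It lay above at most 90 of the 105 in any array, so neither quantile normalization nor the 90th percentile could change it. Only other families of background features could have, and the keratin-associated proteins gave the same background as all 105. The level of each receptor moved by less than its SD in every alternative that bears on it, but only quantile normalization could have moved it further. It gave 8.87 for EGFR, 9.04 for ERBB3 and 4.935 for ERBB4. Leaving out 1 of 3 arrays, centring on the median or averaging a single feature cannot move a mean by its SD. Over 13 settings of the limma fit, 1 of them chosen after seeing the data, the height ranged from 1.43 to 3.37 for EGFR, from 1.60 to 3.54 for ERBB3 and from -2.51 to -0.57 for ERBB4, and the largest adjusted p was 8.72e-07, 1.37e-07 and 3.11e-05. Of these settings, median centring, the mean of a gene's features and the keratin-associated background only repeated the main height and adjusted p of each receptor. The lowest heights of EGFR and ERBB3 came with the 99th percentile as background and the highest with the 90th, and the height of ERBB4 was nearest to 0 with the 90th. The 90th percentile raised the number of named genes above background from 4519 to 7501, since a lower background admits more genes. The ligands above background remained 0 in each alternative. Leaving out a replicate, the 99th percentile, quantile normalization, median centring and both means could not have raised this count. CD68 was above background without replicate 2, with the 90th percentile, with the background of the smaller families and by the mean over the arrays. Of the 3 genes with the pattern most like ERBB3, 1 remained when all named genes were searched. No paired analysis was possible because there was only a single group. Each receptor has 1 feature, and a signal below background leaves the level unknown beneath it.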

Other observations

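Among the 3 annotated genes on each side of a receptor gene, named features were available for 1 of 6 around EGFR, 3 of 6 around ERBB3 and 0 of 6 around ERBB4. EGFR-AS1, an RNA gene within EGFR on the opposite strand, lay between 3.15 (replicate 1) and 3.38 (replicate 3) and was above background in 0 arrays. Beside ERBB3, on chromosome 12, IKZF4, a zinc finger factor of lymphoid cells, had 5.69 ± 0.06 (SD, n = 3) and was above background in 0 arrays, and the ribosomal protein gene RPS26 had 7.14, 7.25 and 7.30 and was above it in 3. RPL41, a ribosomal protein gene on the other side, has 5 features with means from 7.01 to 12.12, of which 4 were above background in all arrays. Ribosomal protein genes have near-identical copies in the genome, so that both of these values are uncertain.

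EGR1, an immediate early transcription factor, reached 8.48 in replicate 2, where it was above background, against 6.38 in replicate 1 and 6.42 in replicate 3. Its second feature was above background in 0 arrays.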
